A study of Mus musculus with 18 samples.

Results

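The Toll-like receptors and their adaptors were examined as 10 genes of the deposited count file, chosen by symbol from the 36757 genes it lists. They comprise 6 receptors (Tlr1, Tlr2, Tlr3, Tlr4, Tlr5 and Tlr9), 2 genes that help Tlr4 bind lipopolysaccharide (Cd14 and Ly96), and 2 adaptors inside the cell (Myd88 and Ticam1). All 10 were found once and counted in the 18 libraries, which held 3 libraries labelled wild type (RNF138fl/fl in the study) and 3 labelled RNF138-/- for each of a chronic colitis model, a colitis-associated cancer (CAC) model and organoids grown from CAC tumors. The mice were C57BL/6, co-housed and 6 to 8 weeks old at the start. The colitis and CAC mice of both genotypes drank 2% dextran sulfate sodium (DSS), which injures the colon lining, for 7 days, then water for 14 days, in repeated cycles. CAC mice had also received the carcinogen azoxymethane, injected at 10 mg/kg, 4 days before the DSS. The paper states that mice of both models were killed 4 weeks after the last DSS. Tissue was whole colorectal tissue, so a change in which cells were present and a change in RNA per cell cannot be told apart. Organoids came from digested tumor fragments, embedded in matrigel. The sources used here do not say whether the 3 libraries of a group came from separate animals or cultures, how the deletion was made, or in which cells, and no untreated mice were analysed here.

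Toll-like receptors are sensors of the innate immune system that recognise molecules of microbes. Tlr1 pairs with Tlr2 to bind bacterial lipoproteins, Tlr4 binds lipopolysaccharide together with Ly96 (MD-2) after Cd14 has handed it over, and Tlr5 binds flagellin, all at the cell surface, while Tlr3 binds double-stranded RNA and Tlr9 binds unmethylated CpG DNA inside endosomes. Myd88 carries the signal of nearly all of these receptors, Ticam1 (TRIF) carries that of Tlr3 and of internalised Tlr4, and both lead to NF-κB. In the intestine these receptors stand between the microbiota and both epithelial and immune cells.

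RNF138 is a ubiquitin ligase, and the study asked how its loss bears on NF-κB signaling. As the check of the labels, Rnf138 had 19.6 ± 4.95 counts per 1000000 (CPM; mean ± SD, n = 3, as for every group here) in RNF138fl/fl colitis libraries and 18.8 ± 0.76 in those labelled RNF138-/-. In CAC it had 25.4 ± 3.43 and 43.6 ± 3.41 CPM, higher in the libraries labelled RNF138-/- (log2 fold change 0.72, SE 0.14, edgeR quasi-likelihood test, Benjamini-Hochberg adjusted p = 0.0426), and in organoids 48.9 ± 9.79 and 46.9 ± 3.81 CPM. A lower Rnf138 level in the libraries labelled RNF138-/- thus passed the test in no model, and how far a deletion would lower its total gene count was not tested. Genotypes are named here as labelled.

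Library totals ran from 11514716 to 24390082 counts, with a median of 17332367. Y-linked genes marked the 12 tissue libraries and the 3 organoid libraries labelled RNF138-/- as male (1911 to 5315 counts of 4 Y-linked genes), whereas the 3 RNF138fl/fl organoid libraries had 0 Y-linked counts and 4924 to 6881 Xist counts. In organoids, sex and genotype therefore cannot be told apart. RNF138fl/fl CAC library 3 and RNF138-/- colitis library 3 stood apart by the share of counts from mitochondrial genes, 6.00% and 6.23%, against 2.57% to 4.61% in the other 10 tissue libraries and 0.695% to 1.34% in organoids. They also stood apart in cell markers, the former by the most colonocyte (10390 CPM) and smooth muscle (8388) and the least macrophage marker counts (159.6) of its group, the latter by adipocyte markers (162.3 CPM against 32.2 and 38.9). Epithelial markers were present in all tissue groups (Epcam at 1431 ± 185.3 CPM in RNF138fl/fl colitis), but in CAC libraries labelled RNF138-/- the smooth muscle markers summed to 113.3 to 242.2 CPM against 2508 to 8388 in RNF138fl/fl, and all 6 of 6 were lower. All 8 epithelial markers were also below there, 1 past the test (sums of 6624 to 8063 against 8188 to 16209 CPM), and the 3 adipocyte markers tested were lower.

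The sequence before the RefSeq start of 3 genes is shown first, because Tlr5, Myd88 and Ticam1 were the members that passed the test together between organoid genotypes. Each line gives the 250 bases before the RefSeq start in GRCm38.p6, 5′ to 3′ on the gene's own strand: Tlr5 at chr1:182954538-182954787 on the plus strand, Myd88 at chr9:119340019-119340268 on the minus strand and Ticam1 at chr17:56276768-56277017 on the minus strand. Capitals mark matches on either strand to any of 5 motifs, GGGANTTTC (NF-κB), GAAANNGAA (interferon regulatory factors), TGANTCA (AP-1), GGGCGG (GC box) and TATAAA.
Tlr5: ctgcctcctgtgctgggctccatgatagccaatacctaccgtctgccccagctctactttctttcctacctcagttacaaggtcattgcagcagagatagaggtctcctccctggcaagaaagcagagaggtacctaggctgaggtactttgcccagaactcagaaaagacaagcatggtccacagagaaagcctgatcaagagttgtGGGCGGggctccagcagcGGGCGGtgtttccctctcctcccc
Myd88: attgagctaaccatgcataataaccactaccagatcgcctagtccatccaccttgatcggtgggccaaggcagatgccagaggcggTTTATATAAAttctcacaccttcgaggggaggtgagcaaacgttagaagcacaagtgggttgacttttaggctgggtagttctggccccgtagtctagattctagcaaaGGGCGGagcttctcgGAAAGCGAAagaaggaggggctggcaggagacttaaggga
Ticam1: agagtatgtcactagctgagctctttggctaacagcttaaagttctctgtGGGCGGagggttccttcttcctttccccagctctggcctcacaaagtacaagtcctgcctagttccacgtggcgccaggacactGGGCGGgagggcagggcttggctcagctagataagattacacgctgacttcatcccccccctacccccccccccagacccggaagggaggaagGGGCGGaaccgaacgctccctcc

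All 3 windows held a GC box, at 2 places in Tlr5, 1 in Myd88 and 3 in Ticam1, and 32.7% of the 32851 promoter windows of the RefSeq table held at least 1. Only Myd88 held an interferon regulatory factor motif, 40 bases before its start (7.13% of all windows), and it also held TATAAA (12.4% of all windows), where matches on both strands overlap. None of the 3 held the NF-κB or the AP-1 letters, which 0.941% and 6.75% of all windows held. Among members not shown, Tlr3 held the NF-κB letters 211 bases and Tlr9 the AP-1 letters 58 bases before its start. These are matches of letters in short windows and say nothing on binding. GENCODE M21 places an exon of Myd88 and of Ticam1 at the last bases of their windows. Its Myd88 gene also starts 1143 bases upstream of the window shown, so that all 250 bases of it lie inside the annotated gene, whereas 19 bases of the Ticam1 window and 0 of the Tlr5 window do.

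The 10 genes lie on 8 chromosomes of mm10, all as protein-coding genes, and the counts are of all their exons. The surface receptor genes are Tlr1 (ENSMUSG00000044827.10, chr5:64924679-64933563), Tlr2 (ENSMUSG00000027995.10, chr3:83836272-83841767), Tlr4 (ENSMUSG00000039005.13, chr4:66827584-66930284) and Tlr5 (ENSMUSG00000079164.8, chr1:182954788-182976044). The endosomal receptor genes are Tlr3 (ENSMUSG00000031639.12, chr8:45395665-45411080) and Tlr9 (ENSMUSG00000045322.10, chr9:106222598-106226883). Cd14 (ENSMUSG00000051439.6) is at chr18:36725067-36726798 and Ly96 (ENSMUSG00000025779.10) at chr1:16688051-16709611. Myd88 (ENSMUSG00000032508.8) is at chr9:119335934-119341411 and Ticam1 (ENSMUSG00000047123.8) at chr17:56269319-56276786. Of the 50-base windows of Tlr1 transcripts, 15.4% also occur in Tlr6, its closest relative, so Tlr1 counts are uncertain to that extent, and Tlr6 itself had 1.24 to 3.11 CPM on average per group. The sources used here give no strand setting. Reads in the exons that Tlr3 shares with the antisense gene Gm45542, and Myd88 with Acaa1a, may therefore not have been told apart.

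Levels were first compared between the genes within each group, as CPM per kilobase of exon. In RNF138fl/fl colitis Cd14 was the most abundant at 35.3 ± 3.91 CPM per kb, followed by Tlr1 (14.8 ± 0.57), Ticam1 (12.1 ± 1.00), Myd88 (10.2 ± 0.35), Tlr2 (7.76 ± 0.24), Tlr3 (5.63 ± 1.62), Ly96 (4.52 ± 0.79), Tlr4 (3.78 ± 0.94), Tlr5 (0.84 ± 0.25) and Tlr9 (0.77 ± 0.07). The libraries of Tlr3 and Ly96, of Ly96 and Tlr4, and of Tlr5 and Tlr9 overlapped, and the other neighbours in this order did not. Cd14 had the highest mean in 5 of the 6 groups. In RNF138fl/fl CAC, however, it overlapped Tlr1 (21.0 ± 7.29 and 19.7 ± 4.56 CPM per kb), and in RNF138fl/fl organoids Tlr2 (19.4 ± 4.73) and Cd14 (18.9 ± 2.99) overlapped at the top. Tlr5 and Tlr9, the flagellin and DNA sensors, were the lowest 2 in the 4 tissue groups, each below 1 CPM per kb on average. In organoids Tlr9 alone was lowest, at 0.01 and 0.06 CPM per kb, and Tlr1, among the top 4 in every tissue group, stood at 0.78 ± 0.26 and 1.07 ± 0.24.

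**Figure D1:**
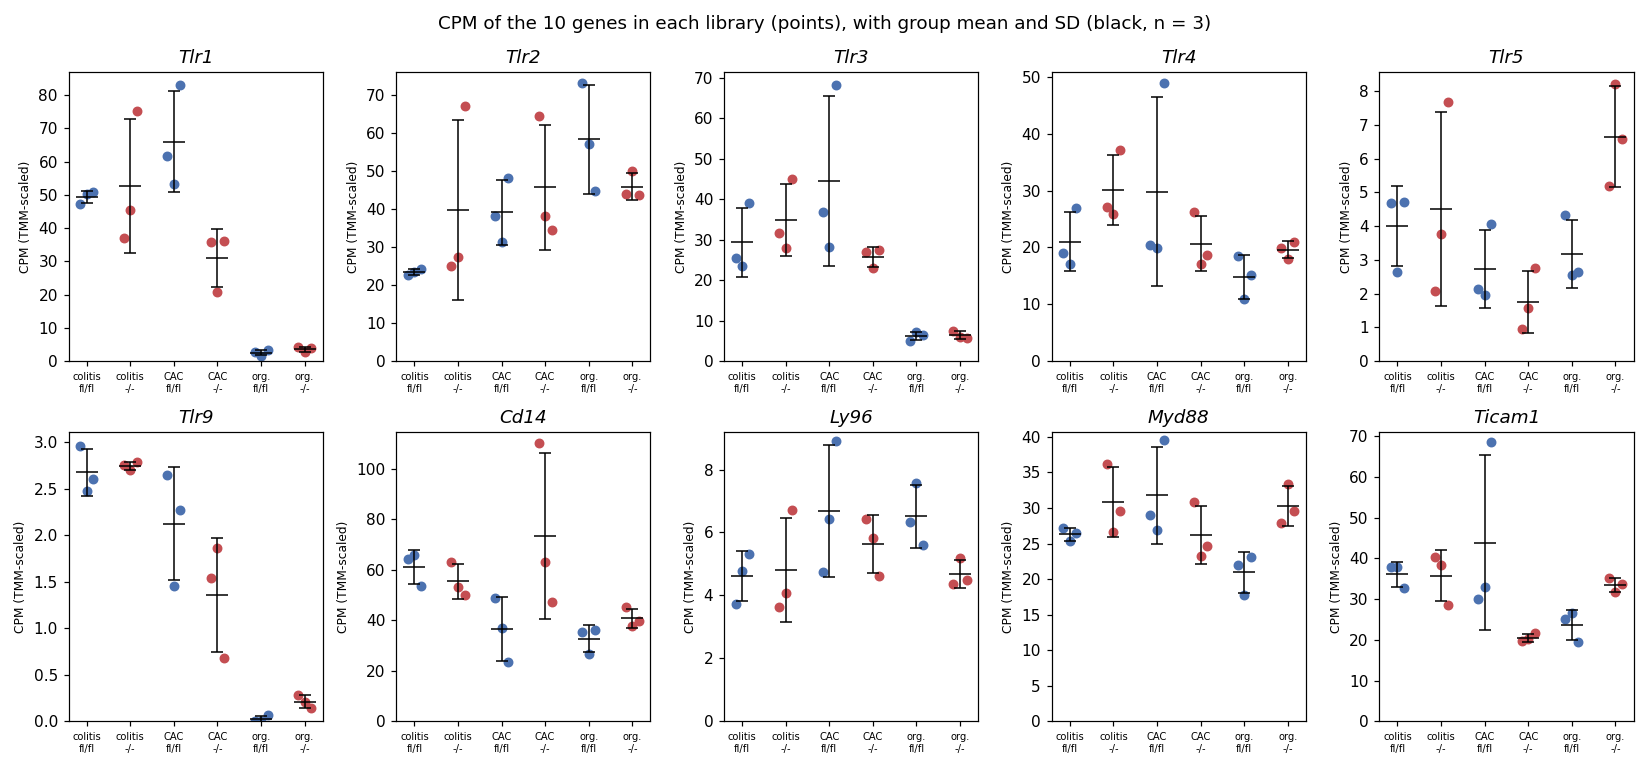
CPM of the 10 genes (vertical axes, each from 0) in the 18 libraries, grouped by model and genotype as labelled (blue RNF138fl/fl, red RNF138-/-, org. for organoid), with the mean and SD in black. Tlr1, Tlr3 and Tlr9 were low in organoids, with Tlr1 at 1.68 to 4.14 CPM against 20.9 to 82.9 in tissue, and the highest Tlr3, Tlr4 and Ticam1 values belong to RNF138fl/fl CAC library 3.

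In the colitis model the comparison of genotypes asked whether the sensors differed in colon after DSS without carcinogen, sampled 4 weeks after the last DSS. None of the 10 genes passed the test, and 8 of 10 had a positive log2 fold change, with a median of 0.14 against 0.02 over all genes. Of all 16623 genes tested, 0.0902% passed at an adjusted p under 0.05. At an unadjusted p under 0.05, again 0 of the 10 passed, against 10.4% of all genes, and DESeq2 also called 0.

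Tlr2, the shared partner for lipoprotein sensing, had 22.7, 23.4 and 24.2 CPM in RNF138fl/fl colitis libraries and 25.1, 27.3 and 67.2 in those labelled RNF138-/-. The groups did not overlap, but 1 library, RNF138-/- library 3, held the highest value by far. The log2 fold change was 0.77 (SE 0.38, edgeR, Benjamini-Hochberg adjusted p = 0.535), and an exact permutation test gave p = 0.1, the smallest that 3 libraries against 3 allow. Over 11 alternatives the log2 fold change of Tlr2 ran from 0.15 to 1.02 and passed the test in 0. Without overlap were 1 of the 10 genes and 17.2% of all genes tested.

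Tlr4 read 19.1, 17.0 and 26.9 CPM in RNF138fl/fl and 27.1, 25.9 and 37.2 in RNF138-/- colitis libraries, with 1 library of each group in the other's range (log2 fold change 0.52, SE 0.25, edgeR adjusted p = 0.526). Its co-receptor Cd14 ran the other way in sign, at 64.4, 65.7 and 53.4 against 63.1, 53.1 and 49.9 CPM (log2 fold change -0.15, SE 0.18, edgeR adjusted p = 0.839). Ly96, the lipopolysaccharide-binding partner of Tlr4, was scarce at 3.74 to 5.33 and 3.65 to 6.71 CPM. Both adaptors overlapped between genotypes, Myd88 with 25.4 to 27.2 and 26.6 to 36.2 CPM and Ticam1 with 32.6 to 37.9 and 28.7 to 40.5.

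In colitis library 3 labelled RNF138-/-, the one with the highest mitochondrial share, Tlr1 (75.3 CPM), Tlr2 (67.2), Tlr3 (44.996), Tlr4 (37.2), Tlr5 (7.69) and Ly96 (6.71) were each at their highest among the 6 colitis libraries. Without it the log2 fold change was -0.27 for Tlr1, -0.46 for Tlr5 and -0.27 for Ly96, all of which were positive with it. The part of the mitochondrial share and of the adipocyte markers in these values was not tested. T cell markers summed to 20.8 to 22.0 CPM in RNF138fl/fl and 39.2 to 50.8 in RNF138-/- colitis libraries, and macrophage markers to 398.3 to 491.8 and 346.8 to 660.4.

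**Figure D2:**
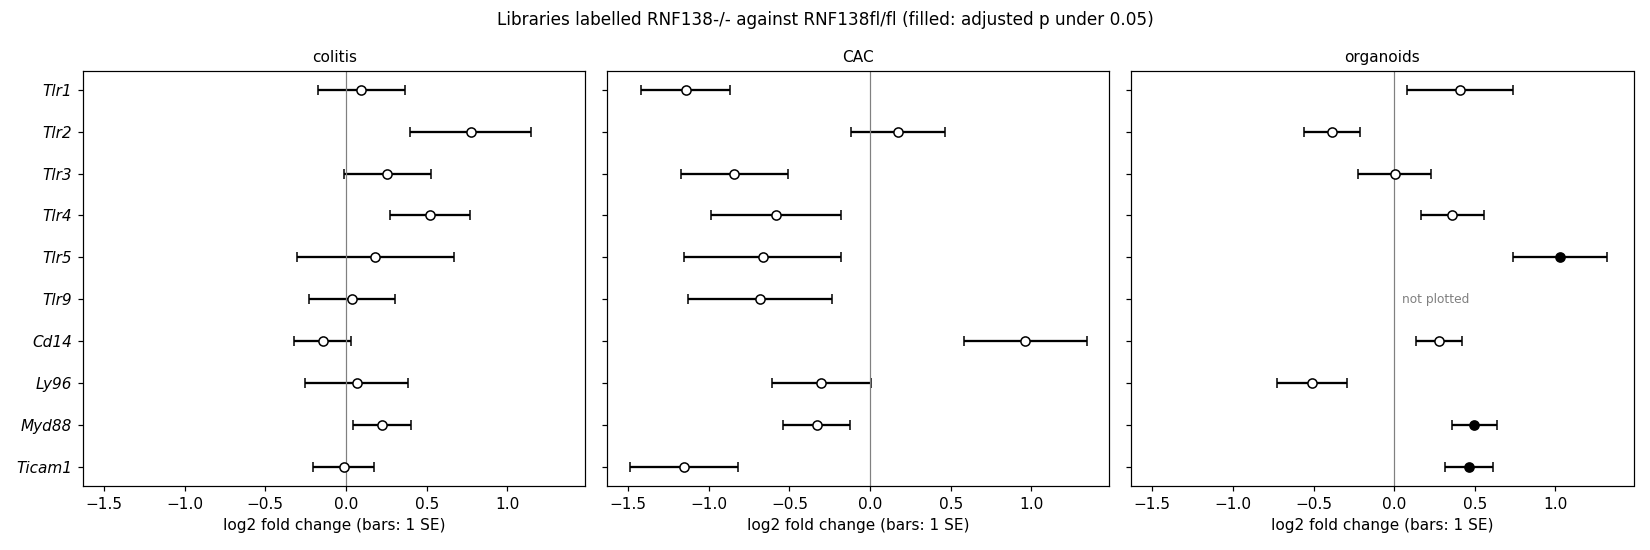
log2 fold change of each gene, libraries labelled RNF138-/- against RNF138fl/fl, in colitis, CAC and organoids (horizontal axis), with bars of 1 standard error and filled points past an adjusted p of 0.05. No gene passed in colitis or CAC, and Tlr5, Myd88 and Ticam1 passed in organoids, where Tlr9 was too scarce to be tested.

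In CAC, 8 of the 10 genes had a lower mean in the libraries labelled RNF138-/- and the median log2 fold change was -0.62, against 0.01 over all genes. Yet 0 of the 10 genes passed the adjusted test, against 6.38% of the 17752 genes tested. At an unadjusted p under 0.05, 4 of 10 passed (Tlr1, Tlr3 and Ticam1 lower, Cd14 higher), against 33.8% of all genes tested, a share near that of the members. Groups did not overlap for 3 of 10 genes, Tlr1, Tlr3 and Ticam1, against 45.2% of all genes.

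Tlr1 had the smallest p of the 10 in CAC. It read 61.8, 53.3 and 82.9 CPM in RNF138fl/fl and 36.0, 20.9 and 36.3 in RNF138-/- libraries. Every RNF138-/- library was below every RNF138fl/fl library, and the means were 66.0 ± 15.3 and 31.1 ± 8.80. The log2 fold change was -1.14 (SE 0.28, edgeR, Benjamini-Hochberg adjusted p = 0.0563, exact permutation p = 0.1), and over 11 alternatives the adjusted p ran from 0.00555 to 0.165, past the threshold in 4.

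Ticam1, the TRIF adaptor, read 30.1, 33.0 and 68.5 CPM in RNF138fl/fl and 19.8, 20.2 and 21.6 in RNF138-/- CAC libraries. The 3 RNF138-/- libraries were close together and below all RNF138fl/fl libraries, of which library 3 was far above the others. The log2 fold change was -1.15 (SE 0.34, edgeR adjusted p = 0.0761), and without RNF138fl/fl library 3 it was -0.65 and past the threshold. Tlr3, whose signal Ticam1 carries, read 36.9, 28.3 and 68.3 against 26.9, 23.0 and 27.5 CPM (log2 fold change -0.84, SE 0.33, edgeR adjusted p = 0.134). Over 11 alternatives the log2 fold change of Tlr3 ran from -1.08 to -0.36 and passed the test in 0.

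Cd14, known as a marker of monocytes and macrophages, ran the opposite way, with 48.8, 36.8 and 23.6 CPM in RNF138fl/fl and 110.1, 62.8 and 47.3 in RNF138-/- CAC libraries. One RNF138-/- value lay within the RNF138fl/fl range (log2 fold change 0.96, SE 0.38, edgeR adjusted p = 0.133). Macrophage markers summed to 159.6 to 444.1 CPM in RNF138fl/fl and 316.9 to 346.9 in RNF138-/- (0 of 8 called, and 0 at an unadjusted p under 0.05). Neutrophil markers summed to 54.4 to 223.1 and 168.1 to 387.3 CPM, overlapping and with 0 of 6 called. Of these 6, 5 were above, 4 of them at an unadjusted p under 0.05 by edgeR, against 33.8% of all genes at that level. Tlr2 (31.2 to 48.1 and 34.5 to 64.5 CPM) was the other member with a positive sign, and its log2 fold change of 0.17 turned to -0.17 without RNF138-/- library 1.

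Tlr4, Myd88, Ly96, Tlr5 and Tlr9 overlapped between the CAC genotypes. Tlr4 read 20.5, 19.9 and 49.0 CPM in RNF138fl/fl and 26.2, 17.1 and 18.7 in RNF138-/- libraries, and without RNF138fl/fl library 3 the log2 fold change turned from -0.58 (SE 0.40, by edgeR with an adjusted p of 0.335) to 0.0029. Myd88, at 29.0, 26.9 and 39.6 against 30.8, 23.2 and 24.6 CPM, likewise had its highest value in that library. The 2 genotypes of CAC tissue also differed widely in markers of other cells: B and plasma cell markers summed to 1513 to 2270 CPM in RNF138fl/fl and 124.8 to 215.3 in RNF138-/- libraries (7 of 7 lower), colonocyte markers to 1437 to 10390 and 54.9 to 136.9 (all 4 below, 2 past the test), and Paneth cell markers to 285.2 to 1049.9 and 3516 to 5740 (all 5 above, 2 past the test). Their part in the values of the receptors was not tested.

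**Figure D3:**
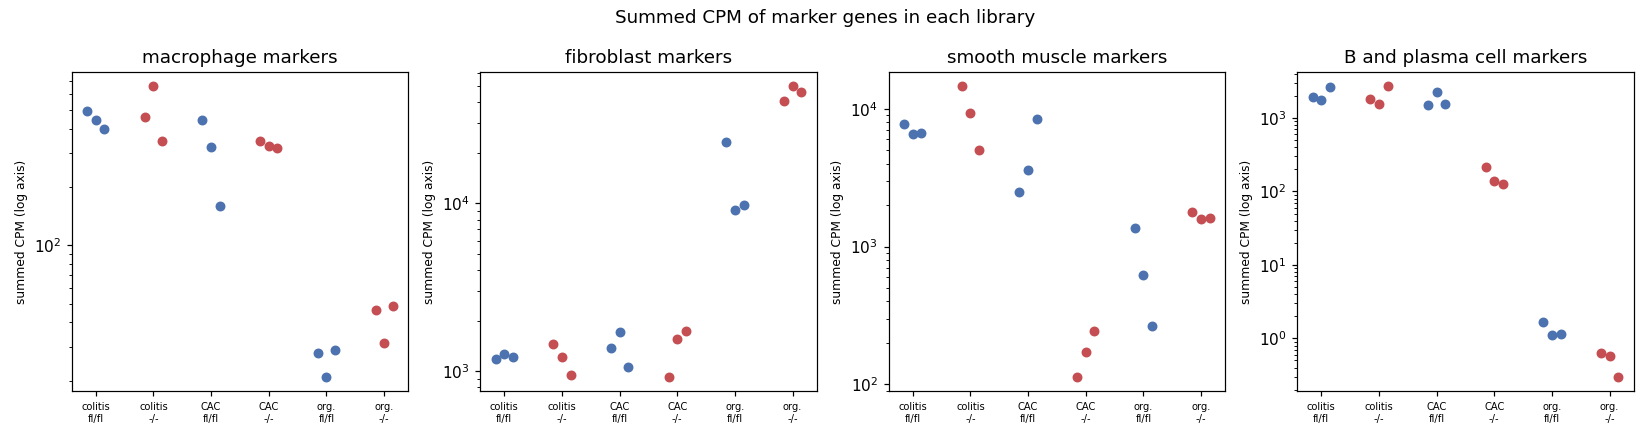
Summed CPM of macrophage, fibroblast, smooth muscle, and B and plasma cell marker genes (vertical axes, log scale) in each library, grouped as labelled (org. for organoid). Smooth muscle and B cell markers were low in CAC libraries labelled RNF138-/-, and organoids had few macrophage and many fibroblast marker counts.

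In organoids, 7 of the 9 genes tested had a positive log2 fold change in the libraries labelled RNF138-/-, of which 3 passed the test, and 2 had a negative one, of which 0 passed. Among all 15294 genes tested, 35.5% passed, 17.9% in the higher direction. The median log2 fold change of the 9 was 0.36, against -0.04 over all genes. Groups did not overlap for Cd14, Ly96, Tlr5, Myd88 and Ticam1, 5 of the 9, a share close to the 53.2% of all genes tested.

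Tlr5, the flagellin receptor, read 4.33, 2.55 and 2.63 CPM in RNF138fl/fl and 5.19, 8.21 and 6.57 in RNF138-/- organoids. All 3 RNF138-/- libraries were higher, with means of 3.17 ± 1.00 and 6.66 ± 1.51 from 32 to 155 counts a library. The log2 fold change was 1.03 (SE 0.29, edgeR, Benjamini-Hochberg adjusted p = 0.0274, exact permutation p = 0.1), the one called change of at least 2-fold.

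Myd88, the adaptor shared by most receptors, read 22.0, 17.7 and 23.1 CPM in RNF138fl/fl and 27.9, 33.4 and 29.6 in RNF138-/- organoids. Every RNF138-/- library was above every RNF138fl/fl library (log2 fold change 0.50, SE 0.14, edgeR adjusted p = 0.0273). Ticam1 read 25.1, 26.5 and 19.4 against 35.2, 31.8 and 33.7 CPM, with the groups apart in the same way (log2 fold change 0.46, SE 0.15, edgeR adjusted p = 0.0395). Leaving out organoid RNF138-/- library 2 or library 3 left 0 of these genes past the test, leaving out RNF138-/- library 1 or RNF138fl/fl library 2 left 1, and one fit of all 18 libraries left none of the 3. The log2 fold changes moved less than the calls, and with 1 library left out they ran from 0.86 to 1.34 for Tlr5, 0.40 to 0.57 for Myd88 and 0.34 to 0.56 for Ticam1.

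The other receptors and co-receptors had signs in both directions in organoids, and none passed the test. Tlr2 read 73.2, 57.1 and 44.8 CPM in RNF138fl/fl and 43.9, 49.9 and 43.8 in RNF138-/- (log2 fold change -0.38, SE 0.17, edgeR adjusted p = 0.117), and Ly96 read 6.34, 7.58 and 5.60 against 4.35, 5.19 and 4.48 (log2 fold change -0.51, SE 0.22, edgeR adjusted p = 0.0963). Tlr4 at 10.9 to 18.5 and 17.9 to 20.9 CPM, Tlr1 at 1.68 to 3.37 and 2.65 to 4.14, and Tlr3 at 5.08 to 7.18 and 5.67 to 7.58 overlapped. Cd14 was 26.8 to 36.1 and 37.6 to 45.1 CPM, apart but not past the test (log2 fold change 0.28, SE 0.14, edgeR adjusted p = 0.163). Tlr9 had 0, 0 and 1 counts in RNF138fl/fl and 4, 4 and 2 in RNF138-/- organoids. The ratio of the summed Tlr9 counts, 10 against 1 and scaled to library size, was 9.61 with a 95% exact interval of 1.37 to 416.8 that covers counting error only, and Tlr9 was below the low-count filter.

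The organoid groups also differed in markers of other cells. All 6 fibroblast markers were higher in the libraries labelled RNF138-/- (summed 40427 to 49682 CPM, against 9097 to 23238), and 6 of the 8 epithelial markers were below, 4 past the test. Paneth cell markers summed to 173.8 to 1151 CPM in RNF138fl/fl and 130.2 to 152.8 in RNF138-/- (all 5 below, 4 past the test), and smooth muscle markers to 265.3 to 1359 and 1584 to 1780 (all 6 above, 2 past the test). Macrophage markers summed to 20.9 to 28.8 and 31.4 to 48.6 CPM, with 5 of the 6 tested above and 4 past the test. They include C1qa, at 0.0491 and 2.02 CPM, and Adgre1, at 0.102 and 3.11. Both RNF138fl/fl means lie below the level of 3 counts in those libraries (0.173 to 0.239 CPM). C1qa and Adgre1 thus passed the low-count filter only through the RNF138-/- libraries, where they are high, and had to differ. What part these markers and the sex of the libraries have in the Tlr5, Myd88 and Ticam1 values was not tested.

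CAC and colitis tissue were compared within each genotype to ask what the carcinogen model added. In RNF138fl/fl, 0 of the 10 genes passed, against 19.8% of the 19390 genes tested in the fit of all libraries. At an unadjusted p under 0.05, 2 of 10 did (Tlr2 higher, Cd14 lower), against 33.8% of all genes, and DESeq2 called 1, Cd14. Cd14 had 61.2 ± 6.77 CPM in colitis and 36.4 ± 12.6 in CAC, without overlap (log2 fold change -0.75, SE 0.27, edgeR adjusted p = 0.0657). Tlr2 read 23.4 ± 0.74 CPM in colitis and 39.1 ± 8.48 in CAC, also without overlap and without passing the test (log2 fold change 0.74, SE 0.33, edgeR adjusted p = 0.122). Neutrophil markers summed to 23.0 to 31.6 CPM in colitis and 54.4 to 223.1 in CAC (all 6 above, 5 past the test), Paneth cell markers to 3.30 to 4.27 and 285.2 to 1049.9 (5 of 5 higher), and macrophage markers to 398.3 to 491.8 and 159.6 to 444.1 (6 of 8 below, 1 past the test). Only 2 of the 6 neutrophil and 3 of the 5 Paneth cell markers passed the low-count filter within colitis. The others entered this fit only through libraries outside colitis, so that the filter itself favours a higher value in CAC. Their counts past the test are therefore not read here. The part of all these markers in the Tlr2 and Cd14 values was not tested.

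In libraries labelled RNF138-/-, 4 of 10 genes passed the test as lower in CAC than in colitis and 0 as higher. Of all genes 54.7% passed, 26.7% in the lower direction. Ticam1 fell from 35.8 ± 6.27 to 20.5 ± 0.94 CPM (log2 fold change -0.80, SE 0.25, edgeR adjusted p = 0.0116), a change under 2-fold. The call held in the 12 alternatives with a threshold on p alone and not with a 2-fold threshold. Tlr5 fell from 4.52 ± 2.87 to 1.77 ± 0.92 CPM (log2 fold change -1.35), Tlr9 from 2.75 ± 0.04 to 1.36 ± 0.61 (log2 fold change -1.01) and Tlr1 from 52.6 ± 20.1 to 31.1 ± 8.80 (log2 fold change -0.76), with edgeR adjusted p of 0.025, 0.0369 and 0.0322. Without colitis RNF138-/- library 3 the log2 fold change was -0.47 for Tlr1 and -0.79 for Tlr5, neither past the test, while that of Tlr9 stayed at -1.05 with an edgeR adjusted p of 0.0506. In that fit 2 genes passed, Ticam1 lower and Tlr2 higher, and without CAC RNF138-/- library 1 or 2 the count was also 2. The shares of all genes given above are of the main fit. These counts have no such share beside them and are not read as results on the members. Without CAC RNF138-/- library 3, Tlr9 had a log2 fold change of -0.68 and did not pass. Between these 2 groups all 6 smooth muscle, 7 B and plasma cell, 4 colonocyte and 4 tested adipocyte markers were lower past the test. All 6 T cell markers were below (3 past the test). All 6 neutrophil and 5 Paneth cell markers were above (5 and 4 past the test, with the limit of the filter given above). The other marker lists had signs both ways. The part of these cells in the values of the members was not tested.

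The 2 genotype effects were then set against each other. The genotype effect in CAC minus that in colitis was below 0 in 9 of 10 genes and passed the test for 1, Ticam1, against 14.1% of all genes tested and 9.88% in the lower direction. For Ticam1 the log2 difference was -1.08 (SE 0.35, edgeR adjusted p = 0.0482). Without RNF138fl/fl CAC library 3 it was -0.61 and no longer past the threshold, and the call was lost in 9 of the 12 fits that each left out 1 library. Cd14 had the opposite sign, 1.15 (SE 0.39, edgeR adjusted p = 0.0567).

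**Figure D4:**
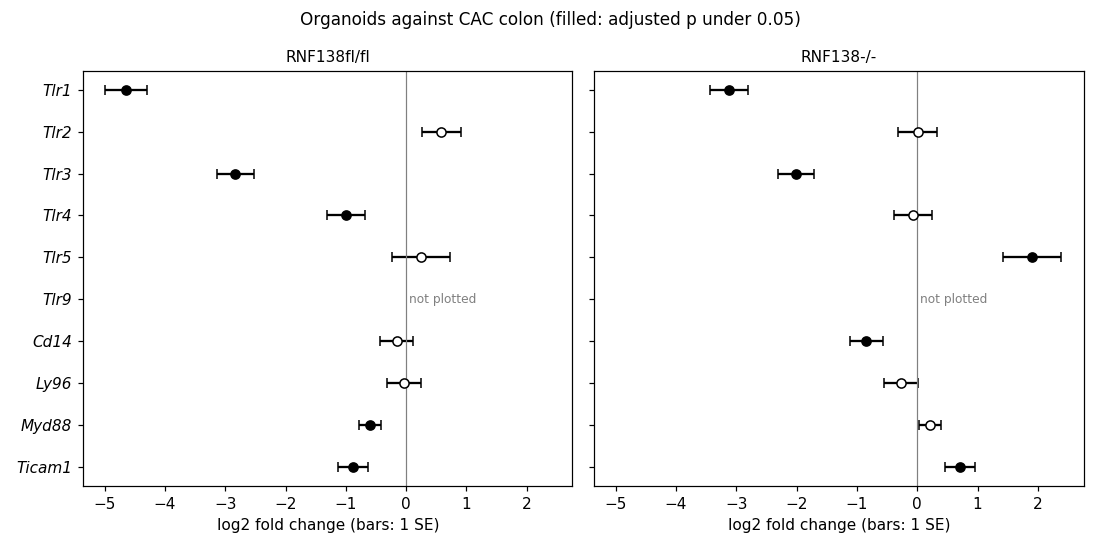
log2 fold change of each gene, organoids against CAC tissue, within RNF138fl/fl and within libraries labelled RNF138-/- (horizontal axis), with bars of 1 standard error and filled points past an adjusted p of 0.05. Tlr1 and Tlr3 lie far to the left in both genotypes, and Tlr9 is left out because organoids held at most 4 counts of it a library.

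Organoids against CAC tissue gave the largest log2 fold changes of the members. Among the members that passed the low-count filter within organoids, tissue stood highest over organoids for Tlr1 and Tlr3. In RNF138fl/fl, 6 of 10 genes passed the test as lower in organoids and 0 as higher, against 60.7% of all genes called and 33.7% lower. In libraries labelled RNF138-/-, 4 passed as lower and 2 as higher, against 59.9% called, 34.2% lower and 25.7% higher. Tlr9 is among the lower genes in both, but it entered this fit only through the tissue libraries, where it is high, and so had to differ. Without it 5 and 3 of 9 genes passed as lower, against 25.2% and 27.1% of the 15294 genes that passed the low-count filter within organoids. The median of all genes was itself at -0.14 and -0.22 on the log2 scale. This comparison is also one of male tissue with female organoids for RNF138fl/fl.

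Tlr1 fell from 66.0 ± 15.3 CPM in RNF138fl/fl CAC to 2.61 ± 0.86 in organoids (log2 fold change -4.65, SE 0.34, edgeR adjusted p = 4.78e-08) and from 31.1 ± 8.80 to 3.58 ± 0.82 in RNF138-/- (log2 fold change -3.12, SE 0.32, edgeR adjusted p = 8.22e-07). Tlr3 fell from 44.5 ± 21.0 to 6.24 ± 1.07 CPM (log2 fold change -2.83, SE 0.31, edgeR adjusted p = 2.13e-06) and from 25.8 ± 2.45 to 6.41 ± 1.02 (log2 fold change -2.01, SE 0.30, edgeR adjusted p = 3.94e-05). Both fell under every alternative. Tlr9 counts summed to 98 in RNF138fl/fl CAC and 1 in organoids, a ratio of 91.1 after scaling (95% exact interval 15.97 to 3635), and to 90 and 10 in RNF138-/- (ratio 6.38, interval 3.32 to 13.8).

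The genes of the lipopolysaccharide receptor complex and Tlr2 were all still counted in organoids. Tlr2 had 58.4 ± 14.3 CPM in RNF138fl/fl organoids and 45.9 ± 3.48 in RNF138-/- organoids, against 39.1 ± 8.48 and 45.7 ± 16.4 in CAC tissue (edgeR adjusted p = 0.131 and 0.987). Ly96 had 4.35 to 7.58 CPM in all 6 organoid libraries and 4.62 to 8.90 in the 6 CAC libraries. Tlr4 fell in RNF138fl/fl, from 29.8 ± 16.6 to 14.8 ± 3.84 CPM (log2 fold change -0.997, SE 0.32, edgeR adjusted p = 0.0133), a call lost without CAC library 3 (log2 fold change -0.45), and read 20.7 ± 4.87 and 19.6 ± 1.51 in RNF138-/-. Cd14 was lower in RNF138-/- organoids (40.7 ± 3.88 against 73.4 ± 32.7 CPM, log2 fold change -0.85, SE 0.27, edgeR adjusted p = 0.0139), a call lost without CAC RNF138-/- library 1 (log2 fold change -0.45), and in RNF138fl/fl it read 32.8 ± 5.17 against 36.4 ± 12.6 CPM. Macrophage markers summed to 25.9 and 42.0 CPM in the 2 organoid groups against 308.2 and 329.8 in CAC, and B and plasma cell markers to 1.31 and 0.504 against 1773 and 159.9.

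Tlr5 had a higher mean in organoids than in CAC in both genotypes, and Ticam1 moved in opposite directions in them. Tlr5 rose from 1.77 ± 0.92 CPM in RNF138-/- CAC to 6.66 ± 1.51 in organoids (log2 fold change 1.91, SE 0.48, edgeR adjusted p = 0.00298), and in RNF138fl/fl it was 2.73 ± 1.16 and 3.17 ± 1.00. Ticam1 fell in RNF138fl/fl organoids (log2 fold change -0.89, SE 0.25, edgeR adjusted p = 0.00566) and rose in RNF138-/- organoids (log2 fold change 0.71, SE 0.25, edgeR adjusted p = 0.0203). Without RNF138fl/fl CAC library 3 the fall was -0.42 and still past the test (edgeR adjusted p = 0.0494), and the rise was lost as a call, at log2 fold changes of 0.68 to 0.69, without CAC RNF138-/- library 1 or 2 or organoid RNF138-/- library 1. Myd88 fell in RNF138fl/fl (log2 fold change -0.60, SE 0.18, edgeR adjusted p = 0.00878; -0.42 and not past the test without CAC library 3) and read 26.2 ± 4.05 and 30.3 ± 2.77 CPM in RNF138-/- CAC and organoids. The test of the difference itself, the genotype effect in organoids minus that in CAC, passed for 3 of the 9 genes other than Tlr9, all positive, against 23.3% of all genes tested, 13.1% in the higher direction, and 14.8% in that direction of the 15294 genes that passed the filter within organoids. They were Ticam1 (a log2 difference of 1.59, SE 0.35, edgeR adjusted p = 0.00459), Tlr1 (1.53, SE 0.44, edgeR adjusted p = 0.0199), and Myd88 (0.81, SE 0.25, edgeR adjusted p = 0.03), whereas Tlr5 did not pass. Tlr9 also passed, but it entered the fit only through tissue, as given above, and its fitted value rests on 11 organoid counts.

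Beside the 10 members, 36 further genes of the pathway were counted, from other receptors to kinases, inhibitors and interferon regulatory factors. In colitis 0 of 35 tested passed between genotypes by edgeR, against 0.0902% of all genes, and 1 at an unadjusted p under 0.05, against 10.4%. In CAC 1 of 35 passed, against 6.38% of all genes. This was Irf7, a transcription factor of the interferon response, which read 195.3, 145.0 and 793.4 CPM in RNF138fl/fl and 50.7, 26.6 and 36.9 in RNF138-/- libraries. The groups did not overlap, and RNF138fl/fl library 3 was far above the others (log2 fold change -3.38, SE 0.72, edgeR adjusted p = 0.0478). Without that library the log2 fold change was -2.19, still past the test, and leaving out RNF138fl/fl library 1 or any of the 3 RNF138-/- libraries ended the call with log2 fold changes of -3.70 to -3.15. In organoids 7 of 27 passed as higher and 4 as lower, against 17.9% of all genes tested as higher and 17.7% as lower. The highest log2 fold changes were those of Tnfaip3 (A20, an inhibitor of NF-κB signaling, 0.90), Hsp90b1 (a chaperone that Toll-like receptors need to fold, 0.87) and Unc93b1 (which carries endosomal receptors to their place, 0.70). The lowest were those of Ticam2 (the adaptor bridging Tlr4 to Ticam1, -1.56), Sigirr (an inhibitory receptor, -1.01) and Irak2 (a kinase below Myd88, -0.70). The calls of Tnfaip3 and Ticam2 were kept in 4 of 11 alternatives each and that of Sigirr in 9, and those of Hsp90b1, Unc93b1 and Irak2 in all 11.

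Between CAC and colitis, 3 of the 36 pathway genes were higher in RNF138fl/fl, Ticam2 (log2 fold change 1.69), Irak2 (0.80) and Tirap (an adaptor beside Myd88, 0.54), against 19.8% of all genes called and 12.3% higher. Of 12 alternatives, Irak2 passed in 12, Ticam2 in 9 and Tirap in 6. Of the 3 other adaptors (Ticam2, Tirap and Sarm1), 2 passed the low-count filter within colitis and 3 within CAC. The one below the filter may be Ticam2. In that case it entered this fit only through libraries outside colitis, so its rise in both genotypes is not read as a result. In libraries labelled RNF138-/-, 12 of the 36 were higher, led by Ticam2 (2.25), Lbp (1.28) and Tab3 (1.19), and 8 were lower, led by Irf7 (-3.92), Cd36 (-2.47) and Sarm1 (-2.24). Those 20 of 36 genes are a share near that of all genes, of which 54.7% were called, 27.9% higher and 26.7% lower. Without colitis RNF138-/- library 3, the log2 fold change of Cd36 was -0.64 and not past the test. In organoids against CAC, 27 of the 36 passed the low-count filter within organoids. The other 9 entered the fit only through tissue libraries, so that the filter itself favours a lower value in organoids. They include 5 of the 6 other receptors of the list (Tlr7, Tlr8, Tlr11, Tlr12 and Tlr13, each at 7 counts or fewer on average per organoid group) as well as Ly86 and Cd180, and their folds are not read here. Of the 27, in RNF138fl/fl 10 passed as lower, led by Irf7 (log2 fold change -3.52, and -2.37 without CAC library 3), Ikbke (-2.14) and Irak4 (-1.70), and 10 as higher, led by Lbp (3.44), the serum protein that passes lipopolysaccharide to Cd14, then Tnfaip3 (1.67) and Tollip (1.27). In RNF138-/-, 10 passed as lower, led by Ticam2 (-3.04), Sigirr (-1.54) and Irf3 (-1.52), and 11 as higher, led by Lbp (2.97), Tnfaip3 (2.75) and Irak3 (2.00). Of the 15294 genes that passed that filter, 25.2% were lower and 33.9% higher in RNF138fl/fl, and 27.1% and 32.1% in RNF138-/-. Lbp itself read 76.4 ± 22.9 and 124.01 ± 13.0 CPM in the 2 organoid groups against 6.95 ± 2.09 and 15.8 ± 3.88 in CAC.

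Across the 12 tissue libraries, Pearson's r between log2 CPM and the mitochondrial share was positive for all members but Cd14. It was 0.89 for Tlr4, 0.88 for Tlr3, 0.73 for Tlr1, 0.71 for Tlr5, 0.64 for Myd88, 0.59 for Ticam1 and 0.42 for Tlr9. For Cd14 it was -0.54, while the median over all genes was -0.07. The 2 libraries of highest share carried part of this. Without them r was 0.75 for Tlr3, 0.68 for Tlr4, 0.51 for Tlr5, 0.43 for Tlr1 and -0.23 for Cd14. It was then 0.49 for Myd88, 0.65 for Ticam1 and 0.49 for Tlr9, and it changed sign for Tlr2 (0.32 to -0.57) and Ly96 (0.42 to -0.45). These are descriptions over 12 libraries in 4 groups, with no test.

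**Figure D5:**
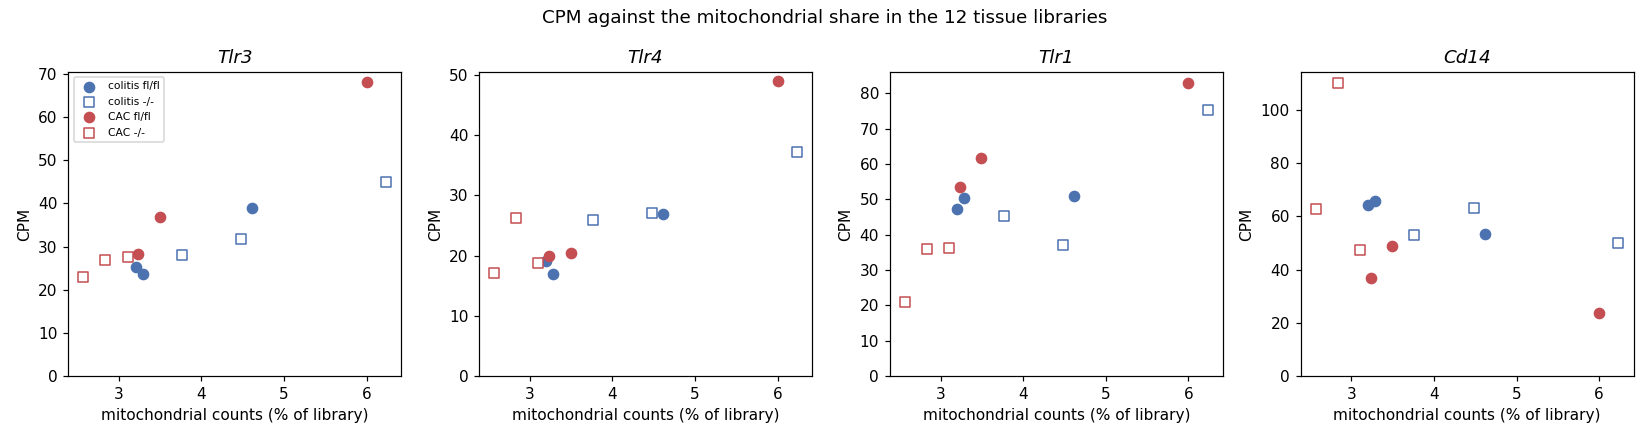
CPM of Tlr3, Tlr4, Tlr1 and Cd14 (vertical axes, from 0) against the percentage of a library's counts from mitochondrial genes, in the 12 tissue libraries, with filled circles for RNF138fl/fl and open squares for RNF138-/-, blue for colitis and red for CAC. The 2 libraries at 6.00% and 6.23% hold the 2 highest values of Tlr3, Tlr4 and Tlr1, and Cd14 is lowest in the one at 6.00%.

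The genes whose log2 CPM followed each member most closely over the same 12 libraries were unlike from member to member. For Tlr3 they were mt-Nd1 (r = 0.97), a mitochondrially encoded subunit of respiratory complex I, Fam114a2 (0.96) and Chmp2b (0.95), and for Tlr4 they were Ppp2r3a (0.95), Tcim (0.94) and AC157950.1 (0.92). Ticam1 went with Khnyn (0.97), Sema4a (0.97) and Gm16233 (0.97), and Myd88 with Stk25 (0.91), Casp4 (0.91), which encodes the sensor of lipopolysaccharide in the cytosol, and 4930417H01Rik (0.91). Tlr2 went with Ikzf2 (0.94), Il7r (0.90) and Clcn1 (0.90), and Tlr1 with Ephx2 (0.93), E130102H24Rik (0.92) and Plekhf2 (0.92). Tlr9 was nearest to 2810459M11Rik (0.92), Xkr8 (0.90) and Cd2 (0.89), the last an adhesion receptor of T cells, and Tlr5 to Hadhb (0.94), Asb4 (0.93) and Slc4a4 (0.92). Cd14 was nearest to Bri3bp (0.92), Fam185a (0.91) and Nle1 (0.91), and Ly96 to Kdm5d (0.91), Ccdc66 (0.90) and Tug1 (0.90). The points share the 4 groups and their libraries, and were chosen as the highest among all genes.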

How the data were processed

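RNA of 18 libraries was sequenced by the authors, per the labels with a TruSeq kit, and the paper names 150-bp paired-end reads, mm10, Cufflinks and Gencode v.M8. The submitters' processing notes name STAR 2.6.1d, HTSeq 0.11.2, DESeq2 and mm10, with no strand setting given in the sources used here. The authors deposited whole-number read counts per gene without normalization, for 36757 genes, of which 99.84% matched GENCODE M21 by base identifier. Their own fold changes and p-values were not used. Depth was 11514716 to 24390082 counts per library.

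Genotypes were compared within each model, and models and differences of genotype effects in one fit of all 18 libraries, with edgeR 4.0.16 (R 4.3.3; TMM, filterByExpr, glmQLFit and glmQLFTest) on all genes with Benjamini-Hochberg adjustment. A call is an adjusted p under 0.05. Only 9 members passed the filter in organoids, and 10 elsewhere. CPM are TMM-scaled over the 18 libraries. Exact permutation tests (two-sided) on CPM have a smallest p of 0.1. Intervals and floors (3 counts) cover counting error only, and p-values measure the spread between libraries, which may be technical. Alternatives were RLE normalization, no filter, DESeq2 1.42.0, a 2-fold threshold, other sets of libraries, the replicate number as a block, and each library left out. Named beyond the members were, by comparison, the 3 highest and 3 lowest called pathway genes (for organoids against CAC, a restriction to genes that passed the filter in organoids was set after seeing the data) and, per member, the 3 genes with the highest r over 12 tissue libraries. Any further gene was chosen with its values in view. The members and lists were chosen with earlier results of these data known. Fits were tested on simulated data. No pair of libraries within a group agreed within sampling noise (chi-square per degree of freedom 7.44 to 143.5). A sex covariate could not be fitted, since sex is constant in tissue and equal to genotype in organoids.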

Additional observations from a re-analysis of the deposited data

Results flagged for a closer look

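The difference between 2 genotype effects passed its own test for Ticam1, Tlr1 and Myd88, by an interaction contrast in the fit of all 18 libraries (edgeR, Benjamini-Hochberg). Tlr9 also passed and is given below only for completeness. For Ticam1 the genotype effect in CAC minus that in colitis was -1.08 on the log2 scale (adjusted p = 0.0482), from 36.1 and 35.8 CPM in colitis and 43.9 and 20.5 in CAC. It was lost in 9 of the 12 fits that each left out 1 library. The genotype effect in organoids minus that in CAC was 1.59 for Ticam1 (adjusted p = 0.00459), with 23.7 and 33.6 CPM in organoids, and this call was kept in each of 17 alternatives and with a 2-fold threshold. For Tlr1 it was 1.53 (adjusted p = 0.0199), where organoids held 2.61 and 3.58 CPM. For Myd88 it was 0.81 (adjusted p = 0.03), past the threshold in 9 of 17 alternatives and not with a 2-fold threshold. For Tlr9 it was 3.53 (adjusted p = 0.0136), a fitted value that rests on 1 and 10 organoid counts and is no bound. Tlr9 was below the low-count filter in organoids and entered this fit only through tissue, so that its passing is not read as a result. Organoid RNF138fl/fl libraries were female and all others male, so that sex and genotype cannot be told apart in the contrasts of organoids with CAC, and the 12 tissue libraries behind the first contrast were all male. The contrasts share the CAC libraries. Groups of 3 libraries were not screened for outliers.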

How the results depend on the processing

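The colitis count of 0 members past the test was 0 in every alternative. In CAC the count of 0 became 3 in one fit of all 18 libraries (Tlr1, Cd14 and Ticam1), 1 with no filter (Tlr1), 2 by DESeq2 (Tlr1 and Ticam1), and 0 to 1 with a library left out. In organoids the count of 3 became 1 in one fit of all 18 libraries (Tlr9), 1 with a 2-fold threshold (Tlr5), and 0 to 4 with a library left out. For CAC against colitis in RNF138fl/fl the count of 0 became 1 with no filter, by DESeq2 and in a fit of the 2 groups alone, and 0 to 1 with a library left out. In RNF138-/- the count of 4 became 1 in a fit of the 2 groups alone, 2 with a 2-fold threshold, 2 without the 2 libraries of highest mitochondrial share (an alternative chosen after seeing the data), and 2 to 3 with a library left out. For organoids against CAC in RNF138fl/fl the count of 6 became 3 with a 2-fold threshold. The CAC minus colitis count of 1 became 3 with no filter and 3 by DESeq2, and 0 to 3 with a library left out, and the organoid minus CAC count of 4, Tlr9 included, became 2 to 4. The shares of all genes given above are of the main fits only. The counts under the alternatives are therefore not set against the share of all genes called there, and show only how the calls move. The causes were not tested.

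Same-numbered libraries of the 2 genotypes did not deviate together throughout (r of 0.23, 0.09 and 0.48 in colitis, 0.03, 0.21 and 0.07 in CAC, -0.18, -0.07 and 0.05 in organoids), so the numbers do not pair them. With the replicate block the counts were 2 in CAC, 0 in organoids, 1 for CAC against colitis in RNF138fl/fl and 2 for CAC minus colitis, and within 1.5 times the main count elsewhere.

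Signs turned only for log2 fold changes that had not passed, with a library left out. In colitis these ranged from -0.27 to 0.29 for Tlr1, -0.46 to 0.52 for Tlr5, -0.034 to 0.11 for Tlr9, -0.27 to 0.23 for Ly96 and -0.11 to 0.12 for Ticam1. In CAC they ranged from -0.17 to 0.37 for Tlr2 and -0.80 to 0.0029 for Tlr4, and in organoids from -0.12 to 0.12 for Tlr3. Depth limits Tlr9 in organoids, at 0 to 4 counts a library, and Tlr5 (18 to 155 counts).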
